A study of Mus musculus with 16 samples.

Results

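Lipases of fat cells and the proteins that switch them on or off were followed as a group of 10 genes: Pnpla2, Lipe, Mgll, Abhd5, G0s2, Pnpla3, Lpl, Angptl4, Lipg and Lipa. The genes were chosen by symbol, as adipose triglyceride lipase (ATGL), its activator ABHD5, its inhibitors and other lipases. All 10 were among the 20295 genes of the count table, and 10 of 10 were among the 12786 genes that passed a filter on low counts and were tested. In brown fat, stored triacylglycerol is hydrolysed at the lipid droplet by ATGL (gene Pnpla2), then by hormone-sensitive lipase (HSL, gene Lipe) and last by monoacylglycerol lipase (MGLL), and the fatty acids released fuel heat production. ABHD5 binds ATGL and activates it once it is released from perilipin, while G0S2 binds ATGL and inhibits it. Lipoprotein lipase (LPL) works outside the cell on the triacylglycerol of circulating lipoproteins and is inhibited by ANGPTL4, whereas lysosomal acid lipase (LIPA) hydrolyses lipid inside lysosomes.

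RNA sequencing counts were available for 16 samples of differentiated brown adipocytes, from a mouse line immortalised with SV40 large T antigen. On day 7, cells received a pretreatment of 1 h with vehicle, with 5 µM triacsin C (TC), an inhibitor of long-chain acyl-CoA synthetases, or with 50 µM etomoxir (ETO), an inhibitor of carnitine palmitoyltransferase, and then 3 h with or without SR-3420, a ligand that releases ABHD5 from perilipin. The sample labels give 10 µM SR-3420 and the figure captions of the study give 20 µM. The design asks how fatty acid activation and fatty acid oxidation bear on the transcriptional response to lipolysis. Vehicle and SR-3420 alone had 2 samples each (replicates 2 and 3, and replicates 1 and 3), and TC, TC+SR-3420, ETO and ETO+SR-3420 had 3 each. Vehicle replicate 1 and SR-3420 replicate 2 were not analysed here. The labels do not state that replicates were separate cultures, though the study's methods speak of independent experiments. The p-values set a difference between groups against the spread among samples of a group, estimated over all 6 groups.

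Total counts were 14032494 and 10097582 in vehicle replicates 2 and 3, and 19156037 and 15667121 in SR-3420 replicates 1 and 3. They were 9452861, 15818919 and 13164376 in TC, and 16265789, 12043744 and 10659704 in TC+SR-3420. With etomoxir they were 14993463, 11813662 and 10993504 without SR-3420, and 25670624, 13173278 and 16512525 with it. The 10 genes took between 0.549% of the counts (TC+SR-3420 replicate 2) and 1.16% (ETO replicate 3).

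All 13 brown adipocyte markers were in the table, and fat cell markers were abundant: Fabp4, the most abundant of them, had at least 3026 CPM (counts relative to the TMM-scaled library total, edgeR's cpm unit) in each sample, and Adipoq at least 806 CPM. Of the markers of brown fat and heat production, Ucp1, the uncoupling protein, had 5 to 57 counts per sample and Dio2 had 0 to 2. The others were counted more: Cox8b 430 to 2601 times, Ppargc1a 207 to 1302, Cidea 100 to 599, Prdm16 77 to 694, Elovl3 85 to 312 and Cox7a1 48 to 180. The summed level of the 13 markers was 14660.0 and 13276 CPM in vehicle, 10883 and 9827 CPM in SR-3420, 14671 to 15871 CPM in TC and 5894 to 6234 CPM in TC+SR-3420. It was 13078 to 14206 CPM in ETO and 5585 to 9573 CPM in ETO+SR-3420. This sum is carried by Fabp4 and a few other abundant genes: of the 12 markers tested with edgeR, 2 were lower with SR-3420 alone (median log2 fold change -0.05), 1 was higher and 7 lower in TC (median -0.75), and 5 were lower in ETO (median -0.43). Of all genes, 2.79%, 19.7% and 12.8% were lower in these comparisons. The summed level of 7 preadipocyte and fibroblast markers, of which Col1a1 was the most abundant, was 1333 to 1616 CPM in vehicle, 2578 to 3732 CPM in SR-3420, 1687 to 2266 CPM in TC, 2679 to 4202 CPM in TC+SR-3420, 880.5 to 1999 CPM in ETO and 2019 to 4378 CPM in ETO+SR-3420. Col1a1 carried most of this sum (median 1676 CPM), and of the 7 genes 3 were higher with SR-3420 in TC and 4 in ETO, beside 17.3% and 12.5% of all genes, while without inhibitor 0 passed in edgeR (3 at unadjusted p < 0.05, and 2 passed in DESeq2). The median log2 fold changes were 0.73 without inhibitor, 0.68 in TC and 0.76 in ETO. The smooth muscle markers, led by Acta2, summed to 364 to 745 CPM without SR-3420 and 679 to 1199 CPM with it. Acta2 carried nearly all of this sum (median 727 CPM, beside 3.88 for Myh11 and 3.71 for Cnn1). With SR-3420, 1 of the 3 was higher without inhibitor and 1 in TC, beside 4.75% and 17.3% of all genes. In ETO, 2 were higher and 1 was lower, beside 12.5% and 12.8% of all genes. Macrophage markers (6 genes) summed to 23.2 to 27.1 CPM in TC and 9.95 to 17.2 CPM in the other groups. Of the 3 tested, 1 was higher with TC alone, beside 4.77% of all genes. With SR-3420, 1 was lower in TC and 1 in ETO, beside 19.7% and 12.8% of all genes. Endothelial markers (5 genes) summed to 0.860 to 3.54 CPM. Kdr, the 1 of them tested, was higher with SR-3420 in TC and in ETO, beside 17.3% and 12.5% of all genes. Gpihbp1, Pecam1, Cdh5, Tie1, Ptprc and Adgre1 were at 0 in some samples. Proliferation markers (3 genes, led by Mki67) summed to 234 to 410 CPM in vehicle and 252 to 418 CPM in SR-3420, 239 to 345 CPM in TC and 375 to 608 CPM in TC+SR-3420, and 238 to 462 CPM in ETO and 356 to 597 CPM in ETO+SR-3420, and 1 of the 3 was higher with SR-3420 in TC, where 17.3% of all genes were. It did not pass when any of the 6 samples was left out. The part of these marker levels in the lipase results was not tested, and in bulk RNA fewer fat cells cannot be told apart from less RNA of these genes per cell.

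Per kilobase of counted length, the vehicle samples ranked the genes as Lpl (mean of 1099.5 CPM per kb), Pnpla2 (921), Lipe (619.5), G0s2 (601), Mgll (126), Angptl4 (112), Abhd5 (52.0), Pnpla3 (50.1), Lipa (28.5) and Lipg (1.28). The ranges of the 2 vehicle samples overlapped between Lpl and Pnpla2, Pnpla2 and Lipe, Lipe and G0s2, Mgll and Angptl4, and Abhd5 and Pnpla3. Within each of the 2 samples, though, Pnpla2 lay above Lipe (1142 against 736 and 700.5 against 503 CPM per kb) and Mgll above Angptl4 (138 against 124 and 114 against 101 CPM per kb). G0s2 lay above Mgll, Angptl4 above Abhd5, Pnpla3 above Lipa and Lipa above Lipg in both vehicle samples. In the SR-3420 samples G0s2 ranked 1, Pnpla2 2, Lpl 3, Lipe 4 and Angptl4 5, so 3 of 10 genes kept their rank. G0s2 has a counted length of 843 bases, the shortest of the group, and the submitters kept 1 read per position and length, which can limit the counts of a short, highly counted gene. The plot of the 10 genes by sample shows the levels in all groups.

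**Figure D1:**
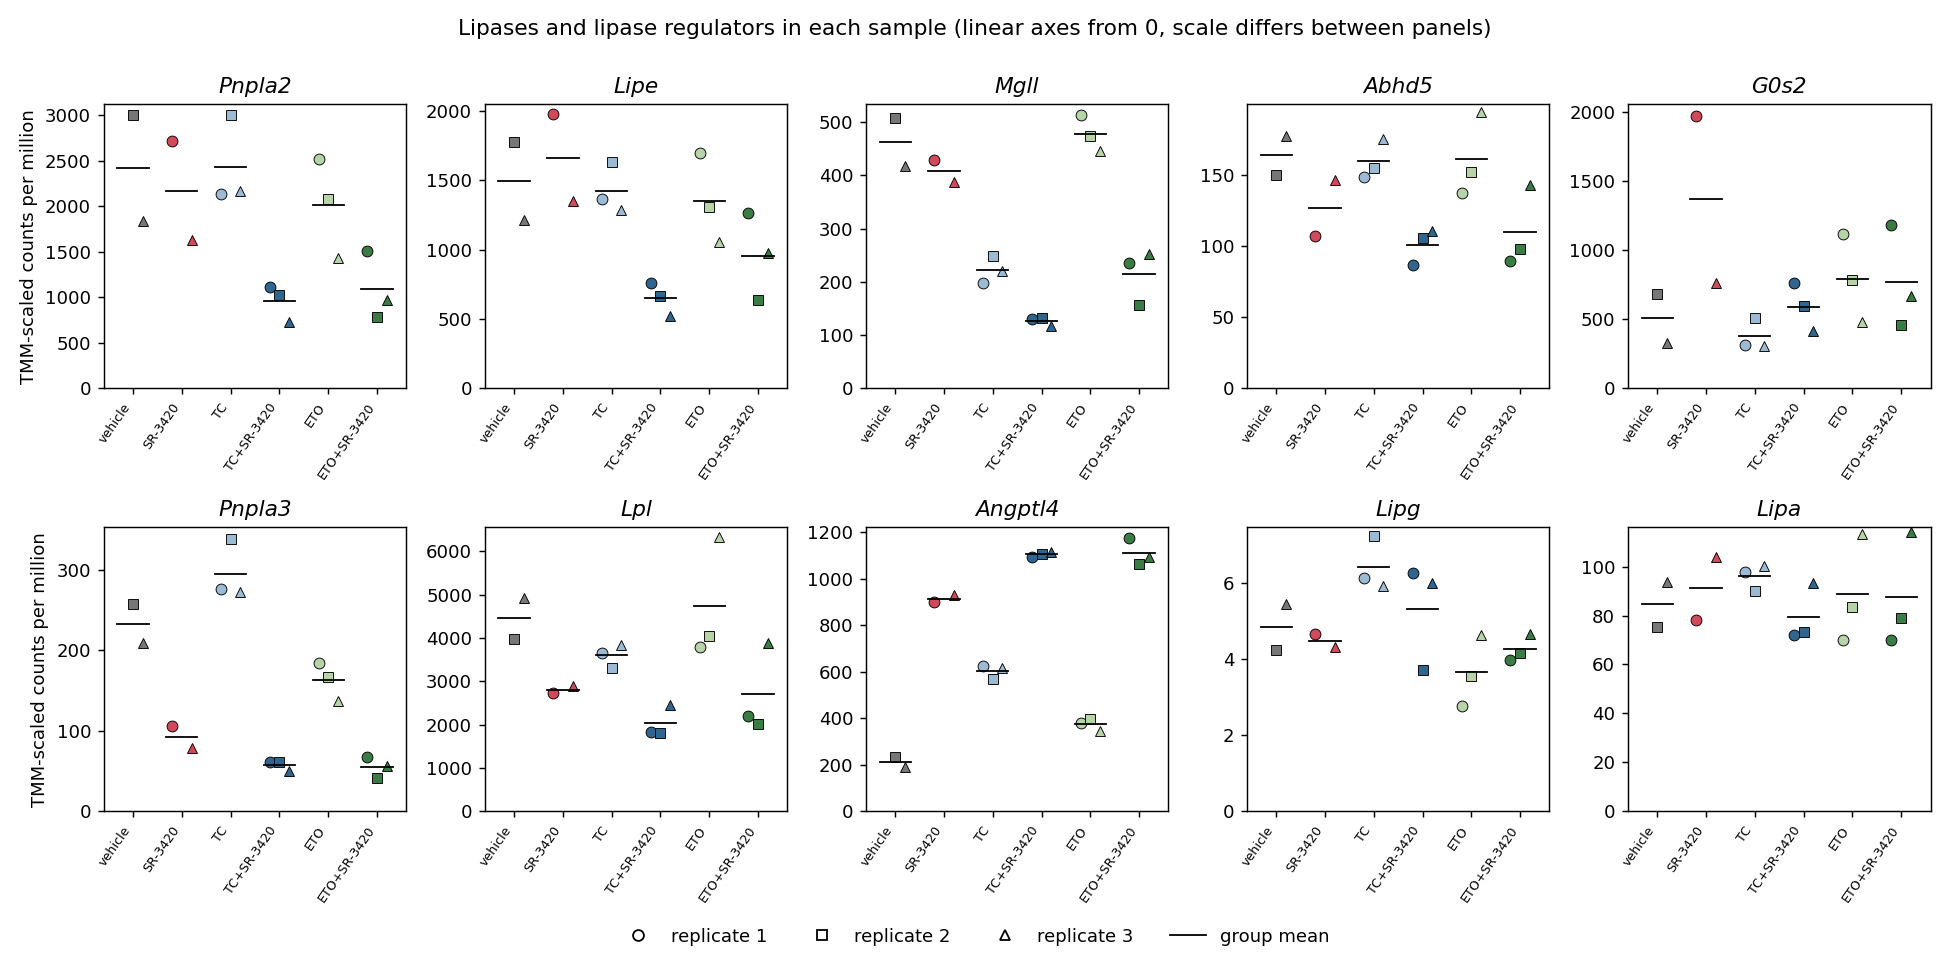
Level of each of the 10 genes in each of the 16 samples, in CPM after TMM scaling on linear axes from 0, by treatment group; each point is 1 sample and the bar is the group mean. Angptl4 lies at 901 to 1173 CPM in the 8 samples with SR-3420 and at 192 to 627 CPM in the 8 without it, and Pnpla3 at 41.6 to 106 CPM with SR-3420 and 137 to 338 CPM without it.

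Promoter sequence was available for 7 of the 10 genes (Pnpla2, G0s2, Pnpla3, Mgll, Lipe, Abhd5 and Lipa, with 9 starts); Lpl, Angptl4 and Lipg had no entry. The 250 bases before the start are shown for ATGL and its inhibitor, whose levels within groups went together, and for Pnpla3 and Mgll, which fell with SR-3420 in at least 2 of the 3 backgrounds. They are from RefSeq on GRCm38.p6, each written 5′ to 3′ on the strand of its gene: Pnpla2 at chr7:141454938-141455187 (plus strand), G0s2 at chr1:193273189-193273438 (minus strand), Pnpla3 at chr15:84167566-84167815 (plus strand) and Mgll at chr6:88724162-88724411 (plus strand, 1 of 2 starts). Capitals mark matches to any of 5 motifs, searched on both strands.
Pnpla2: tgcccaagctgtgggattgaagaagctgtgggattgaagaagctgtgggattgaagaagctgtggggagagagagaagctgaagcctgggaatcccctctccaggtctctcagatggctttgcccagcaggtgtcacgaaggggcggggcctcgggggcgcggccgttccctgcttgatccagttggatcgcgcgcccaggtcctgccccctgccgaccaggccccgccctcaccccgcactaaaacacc
G0s2: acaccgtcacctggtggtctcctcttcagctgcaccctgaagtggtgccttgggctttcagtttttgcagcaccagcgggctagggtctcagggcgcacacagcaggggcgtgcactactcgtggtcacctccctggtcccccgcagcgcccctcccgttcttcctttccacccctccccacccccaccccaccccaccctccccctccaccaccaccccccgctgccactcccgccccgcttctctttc
Pnpla3: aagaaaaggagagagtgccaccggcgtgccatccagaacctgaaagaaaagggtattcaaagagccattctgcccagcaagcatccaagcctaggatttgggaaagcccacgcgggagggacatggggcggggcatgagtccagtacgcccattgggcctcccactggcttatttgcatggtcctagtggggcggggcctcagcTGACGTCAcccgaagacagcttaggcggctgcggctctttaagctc
Mgll: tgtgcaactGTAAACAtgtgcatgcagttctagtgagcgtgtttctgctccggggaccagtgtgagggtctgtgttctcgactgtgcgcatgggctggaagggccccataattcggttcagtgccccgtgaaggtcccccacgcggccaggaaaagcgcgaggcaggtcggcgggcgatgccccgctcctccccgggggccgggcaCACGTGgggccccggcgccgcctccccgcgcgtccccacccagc

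The motifs were the nuclear receptor half-site AGGTCA, found in 14% of 32851 mouse promoters of the same length, the direct repeat AGGTCANAGGTCA of that half-site (0.0335%), the cAMP response element TGACGTCA (1.55%), the E-box CACGTG (6.02%) and the FOXO site GTAAACA (3.17%). The Pnpla3 window held the cAMP response element 46 bases before the start. The Mgll window printed held an E-box 44 bases and a FOXO site 241 bases before the start, and the window of the other Mgll start (chr6:88724454-88724703) held 0 of the motifs. Of the windows not printed, Abhd5 held a half-site 69 bases before its start, and the Lipe starts held an E-box (155 bases) and, at the other start, a FOXO site (119 bases). No such letters stood in the windows of Pnpla2, G0s2 and Lipa either. Each match is a description of the sequence only.

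SR-3420 was compared with its own control in each of the 3 backgrounds, with edgeR's quasi-likelihood test and Benjamini-Hochberg adjustment over the 12786 genes. A gene is said to be higher or lower, or to have risen or fallen, where its adjusted p was under 0.05. With SR-3420 alone, 2 of 10 genes passed, against 7.54% of all genes tested: Angptl4 was higher (4.75% of all genes were higher) and Pnpla3 lower (2.79% were lower). In TC-treated cells, 7 of 10 passed, against 36.9% of all genes: Angptl4 was higher (17.3%), and Pnpla2, Pnpla3, Abhd5, Lipe, Mgll and Lpl were lower (19.7%). In ETO-treated cells, 5 of 10 passed, against 25.3%: Angptl4 was higher (12.5%), and Pnpla2, Pnpla3, Mgll and Lpl were lower (12.8%). The median log2 fold change of the 10 genes was -0.13 with SR-3420 alone, -0.74 in TC and -0.53 in ETO, and the median over all genes was 0.00, 0.02 and 0.01. Without scaling factors, a setting chosen after seeing the data, the median of all genes for SR-3420 alone moved to -0.12, and 467 genes were higher and 572 lower in place of 607 and 357. With the replicate block the counts were 4, 8 and 7 of 10 genes, beside 2438, 7185 and 5776 of all genes in place of 964, 4722 and 3234. The count of 2 for SR-3420 alone was the same when any 1 of the 4 samples was left out, but the count over all genes fell from 964 to 340 without vehicle replicate 2, 316 without vehicle replicate 3, 344 without SR-3420 replicate 1 and 515 without SR-3420 replicate 3. Without ETO+SR-3420 replicate 2, the ETO count was 3 of 10 genes and 1987 of all genes, in place of 3234. SR-3420 alone, TC alone and ETO alone were each compared with the same 2 vehicle samples, and each inhibitor arm has its own control for SR-3420.

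**Figure D2:**
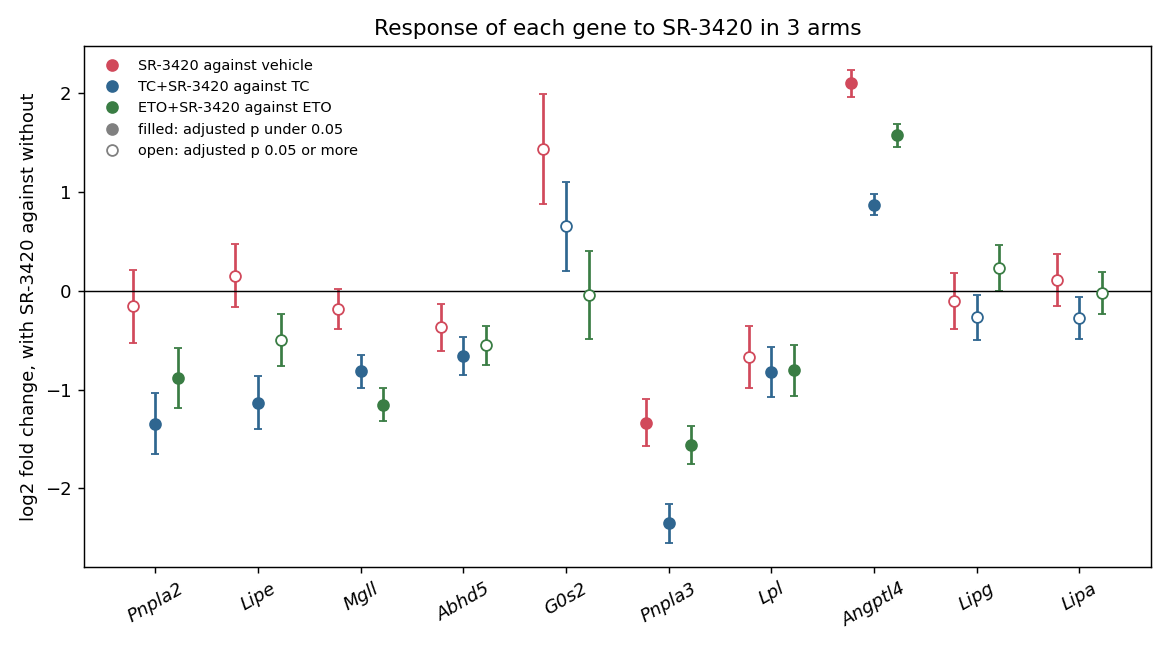
Log2 fold change of each of the 10 genes for SR-3420 against its own control, in cells without inhibitor, with TC and with ETO; points are estimates and lines are 1 standard error to each side. Angptl4 is above 0 in all 3 (2.10, 0.87 and 1.57) and Pnpla3 below 0 in all 3 (-1.34, -2.35 and -1.56).

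ATGL, encoded by Pnpla2 (NM_001163689, chr7:148641087-148646642 of mm9, plus strand, 9 exons), starts the hydrolysis of stored fat. Pnpla2 stood at 3010.1 and 1846 CPM in vehicle and at 2718.5 and 1631.5 CPM in SR-3420. In TC it was 2137, 3002 and 2172 CPM, and in TC+SR-3420 1119, 1024 and 730.4 CPM. In ETO it was 2517, 2087 and 1438 CPM, and in ETO+SR-3420 1509, 789 and 978 CPM. The vehicle and SR-3420 samples were intermingled, the TC+SR-3420 samples all lay under the TC samples, and in the ETO arm the highest treated sample lay above the lowest control. The log2 fold change for SR-3420 was -0.16 (SE 0.37, edgeR adjusted p = 0.852) in cells without inhibitor, -1.35 (SE 0.31, adjusted p = 0.00406) in TC and -0.88 (SE 0.31, adjusted p = 0.0492) in ETO. The ETO value lost its call without ETO replicate 1 (adjusted p = 0.160), ETO replicate 2 (0.115), ETO+SR-3420 replicate 2 (0.191) or ETO+SR-3420 replicate 3 (0.118), and with DESeq2's size factors (0.0513) or a fit to the compared groups only (0.116). Its adjusted p ran from 0.00305 (replicate block) to 0.191 over these and the other alternatives.

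HSL, encoded by Lipe (NM_010719, chr7:26164546-26181006 of mm9, minus strand), takes diacylglycerol as its main substrate. Lipe stood at 1774 and 1214 CPM in vehicle and 1976 and 1348 CPM in SR-3420, with the groups intermingled. It was 1364, 1629 and 1285 CPM in TC against 759.7, 668 and 522 CPM in TC+SR-3420, with all treated samples under all controls. It was 1694, 1308 and 1053 CPM in ETO against 1263, 635 and 975 CPM in ETO+SR-3420, where the groups overlapped. Lipe fell by 1.13 on the log2 scale with SR-3420 in TC-treated cells (SE 0.27, edgeR adjusted p = 0.00483). The values were 0.15 (SE 0.32, adjusted p = 0.833) in cells without inhibitor and -0.50 (SE 0.26, adjusted p = 0.192) in ETO, neither of which passed, though the ETO value did with the replicate block (0.0495).

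MGLL, encoded by Mgll (NM_011844, chr6:88674406-88778354 of mm9, plus strand), hydrolyses monoacylglycerol to glycerol and a fatty acid. Mgll stood at 508 and 418 CPM in vehicle and 429 and 387 CPM in SR-3420. In TC it was lower than in both vehicle samples, at 198, 249 and 221 CPM, and in TC+SR-3420 lower still, at 131, 131 and 117 CPM. In ETO it was 514, 474 and 445 CPM, and in ETO+SR-3420 236, 156 and 253 CPM, with no overlap. Mgll was the only 1 of the 10 genes that fell with TC itself, by 1.06 on the log2 scale (SE 0.18, edgeR adjusted p = 0.00183). With SR-3420 it fell by 0.82 in TC (SE 0.17, adjusted p = 0.00196) and by 1.15 in ETO (SE 0.17, adjusted p = 0.000330), and its value without inhibitor was -0.18 (SE 0.20, adjusted p = 0.662).

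ABHD5, encoded by Abhd5 (NM_026179, chr9:122260734-122290641 of mm9, plus strand), is the co-activator of ATGL and the protein that SR-3420 binds. Abhd5 stood at 150.0 and 177 CPM in vehicle and 107 and 146 CPM in SR-3420. It was 148, 155 and 175 CPM in TC and 86.4, 106 and 111 CPM in TC+SR-3420. It was 137, 152 and 194 CPM in ETO and 89.2, 97.5 and 142 CPM in ETO+SR-3420. Each treated group lay lower than its control, with no overlap except in the ETO arm. In TC-treated cells Abhd5 fell by 0.66 on the log2 scale (SE 0.20, edgeR adjusted p = 0.0177), and the value was -0.37 (SE 0.24, adjusted p = 0.409) without inhibitor and -0.55 (SE 0.20, adjusted p = 0.0531) in ETO. The TC call was lost without TC replicate 3 (adjusted p = 0.0640), TC+SR-3420 replicate 1 (0.0717) or TC+SR-3420 replicate 2 (0.0647), over a range of 7.09e-05 (replicate block) to 0.0717. The ETO value passed without ETO replicate 1 (0.0448) or ETO+SR-3420 replicate 3 (0.00888), with DESeq2 (0.0304), among genes with at least 10 counts in every sample (0.0448) and with the replicate block (0.000415), over a range of 0.000415 to 0.182.

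G0S2, encoded by G0s2 (NM_008059, chr1:195098354-195099382 of mm9, minus strand, 2 exons), is a small inhibitor of ATGL. G0s2 stood at 683 and 330.0 CPM in vehicle, and at 1974 and 765 CPM in SR-3420. It was 314, 510.4 and 307 CPM in TC and 765, 599 and 414.5 CPM in TC+SR-3420. It was 1116, 785 and 481 CPM in ETO and 1180.1, 462 and 669 CPM in ETO+SR-3420. Samples of 1 group differed by up to 2.58-fold, more than for any other gene of the group, and of the 3 comparisons of SR-3420 with its own control, the groups were apart in the cells without inhibitor. No response of G0s2 to SR-3420 passed: the log2 fold change for SR-3420 was 1.43 (SE 0.56, edgeR adjusted p = 0.147) without inhibitor, 0.65 (SE 0.45, adjusted p = 0.276) in TC and -0.04 (SE 0.45, adjusted p = 0.960) in ETO. With the replicate block the first of these passed (adjusted p = 0.0371).

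Among samples of a group, however, G0s2 and Pnpla2 went together, and their ratio varied less than either gene. Counts of G0s2 per kb, divided by those of Pnpla2, were on average 0.634 (lowest 0.559, highest 0.709) in vehicle and 1.87 (1.47 to 2.27) in SR-3420. The ratio was 0.478 (0.442 to 0.531) in TC and 1.91 (1.77 to 2.14) in TC+SR-3420. It was 1.20 (1.04 to 1.39) in ETO and 2.14 (1.83 to 2.44) in ETO+SR-3420. All 8 samples with SR-3420 had a higher ratio of inhibitor to lipase transcript than all 8 samples without it. The 2 genes had unlike parts in this by background. The log2 fold changes of G0s2 and Pnpla2 were 1.43 and -0.16 without inhibitor, 0.65 and -1.35 in TC, and -0.04 and -0.88 in ETO. Of these, the Pnpla2 values in TC and ETO passed in edgeR, the latter not under every alternative, and no G0s2 value did. The mean ratio was 2.95-fold the own control without inhibitor, 4.00-fold in TC and 1.78-fold in ETO. This ratio was chosen after its values were seen and carries no test, and no scaling factor enters it. For the activator, the Abhd5 to Pnpla2 ratio was 0.0610 in vehicle, 0.0540 in SR-3420, 0.0562 in TC, 0.0926 in TC+SR-3420, 0.0732 in ETO and 0.0917 in ETO+SR-3420, and the ranges of treated and control samples overlapped in all 3 backgrounds.

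**Figure D3:**
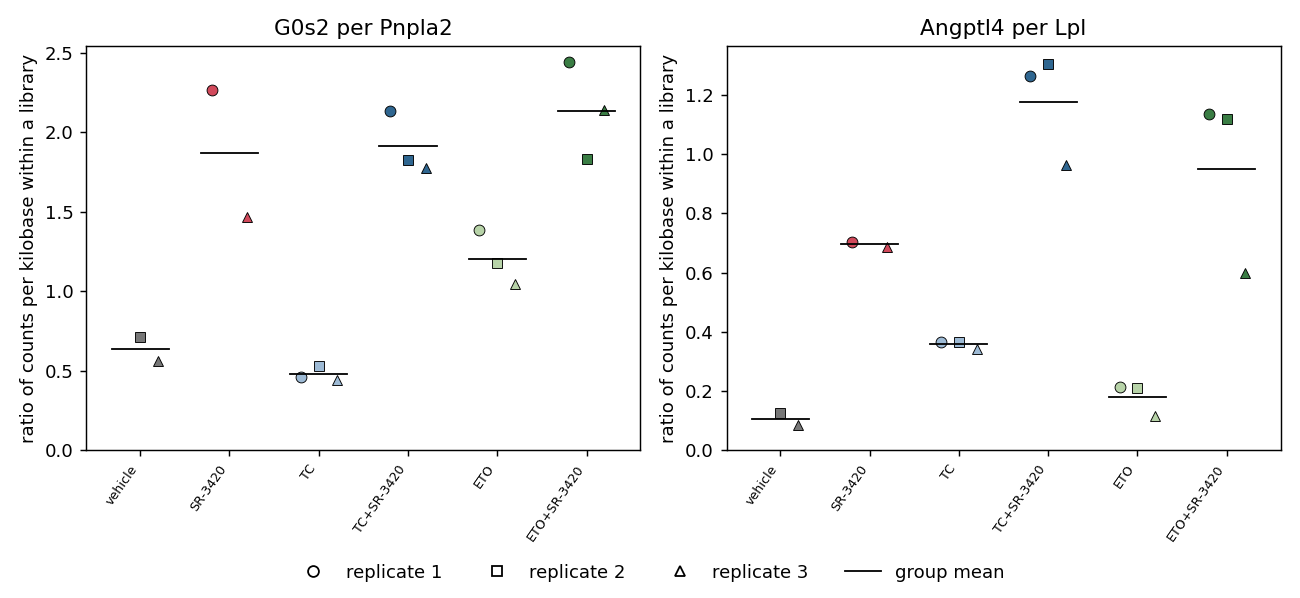
Ratio of G0s2 to Pnpla2 and of Angptl4 to Lpl, each as counts per kb within a sample, by treatment group; each point is 1 sample and the bar is the group mean. The 8 samples with SR-3420 lie above the 8 without it in both ratios (1.47 to 2.44 for G0s2 to Pnpla2, with the others at 0.442 to 1.39).

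Pnpla3 (NM_054088, chr15:83998246-84019951 of mm9, plus strand) encodes adiponutrin, a droplet protein related to ATGL that can bind ABHD5. Pnpla3 stood at 257 and 209 CPM in vehicle and at 106 and 79.0 CPM in SR-3420. It was 276, 338 and 272 CPM in TC and 61.1, 61.8 and 50.3 CPM in TC+SR-3420. It was 184, 167 and 137 CPM in ETO and 68.0, 41.6 and 55.8 CPM in ETO+SR-3420. All 8 samples with SR-3420 lay under all 8 samples without it, and Pnpla3 was lower with SR-3420 in each of the 3 backgrounds. The log2 fold change was -1.34 (SE 0.24, edgeR adjusted p = 0.00416) without inhibitor, -2.35 (SE 0.20, adjusted p = 4.60e-06, a mean 5.11-fold lower) in TC and -1.56 (SE 0.19, adjusted p = 0.000118) in ETO. The value without inhibitor lost its call only in a fit to the compared groups alone (adjusted p = 0.0962, within a range of 5.08e-06 to 0.0962).

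LPL, encoded by Lpl (NM_008509, chr8:71404454-71430831 of mm9, plus strand), is secreted by fat cells and acts at the capillary wall. Lpl stood at 3983 and 4921.5 CPM in vehicle and 2725 and 2882 CPM in SR-3420, with no overlap. It was 3645, 3304 and 3839.5 CPM in TC and 1838, 1805 and 2459 CPM in TC+SR-3420, again with no overlap. It was 3798, 4054 and 6329.8 CPM in ETO and 2197, 2024 and 3892 CPM in ETO+SR-3420, where replicate 3 was the highest of both groups and the treated replicate 3 lay above the lowest control. The log2 fold change was -0.67 (SE 0.31, edgeR adjusted p = 0.233) without inhibitor, -0.82 (SE 0.26, adjusted p = 0.0222) in TC and -0.81 (SE 0.26, adjusted p = 0.0343) in ETO. The TC call was lost without TC replicate 1 (0.0525), TC replicate 3 (0.0641), TC+SR-3420 replicate 1 (0.0728) or TC+SR-3420 replicate 2 (0.113), in a range of 0.000317 (replicate block) to 0.113 for the adjusted p. The ETO call was lost without ETO replicate 3 (0.129), ETO+SR-3420 replicate 1 (0.102) or ETO+SR-3420 replicate 2 (0.144) and in a fit to the compared groups alone (0.165), in a range of 0.000611 (replicate block) to 0.165. The value without inhibitor passed with the replicate block (0.0246).

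ANGPTL4, encoded by Angptl4 (NM_020581, chr17:33911845-33918520 of mm9, minus strand), inactivates LPL and is a known target of the fatty acid sensing PPAR receptors. Angptl4 stood at 236 and 192 CPM in vehicle and at 901 and 929 CPM in SR-3420. It was 627, 569 and 615 CPM in TC and 1093, 1107 and 1114 CPM in TC+SR-3420. It was 379, 398 and 345 CPM in ETO and 1173, 1064 and 1095 CPM in ETO+SR-3420. The 8 SR-3420 samples ended at similar levels, all above the other 8, while the samples without it lay at 192 to 236 CPM in vehicle, 345 to 398 CPM in ETO and 569 to 627 CPM in TC. With SR-3420 Angptl4 rose by 2.10 on the log2 scale without inhibitor (SE 0.14, edgeR adjusted p = 3.82e-06, a mean 4.28-fold higher), by 0.87 in TC (SE 0.11, adjusted p = 6.18e-05) and by 1.57 in ETO (SE 0.11, adjusted p = 1.71e-06). TC alone raised Angptl4 2.82-fold (SE 0.13 on the log2 scale, adjusted p = 9.63e-06). The counts per kb of Angptl4 divided by those of Lpl averaged 0.104 in vehicle and 0.695 in SR-3420, 0.358 in TC and 1.18 in TC+SR-3420, and 0.179 in ETO and 0.951 in ETO+SR-3420, a ratio chosen after its values were seen and given without a test.

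Endothelial lipase, encoded by Lipg (NM_010720), was counted 42 to 106 times per sample (2.77 to 7.25 CPM), the lowest of the group in all samples. Lysosomal acid lipase, encoded by Lipa (NM_001111100), lay between 69.9 CPM (ETO+SR-3420 replicate 1) and 114 CPM (ETO+SR-3420 replicate 3). Neither gene passed the edgeR test in any comparison, though Lipa did in TC+SR-3420 against TC with the replicate block (adjusted p = 0.0446). For SR-3420 the log2 fold changes of Lipa were 0.11 (SE 0.26) without inhibitor, -0.27 (SE 0.21) in TC and -0.02 (SE 0.21) in ETO, and those of Lipg were -0.10 (SE 0.28), -0.27 (SE 0.23) and 0.23 (SE 0.24).

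The inhibitors were also compared with vehicle, to see what each did before lipolysis was stimulated. With TC, 2 of 10 genes passed against 11.7% of all genes: Angptl4 was higher (4.77% of all genes were higher) and Mgll lower (6.94% were lower), with a median log2 fold change of -0.02 for the 10 genes and 0.07 for all genes. Over all genes, the 1497 calls became 1094 without TC replicate 1, while Angptl4 and Mgll passed whichever of the 3 TC samples was left out. With ETO, 0 of 10 genes passed the edgeR test, against 0.0235% of all genes (3 genes, and 0 without vehicle replicate 3). At an unadjusted p under 0.05 there were 2 (Angptl4 and Pnpla3) and 283 of the 12786 genes, and DESeq2's Wald test gave 1 (Angptl4) and 17 of all genes. The ETO value of Angptl4 was 0.81 (SE 0.12, edgeR adjusted p = 0.0599), with all 3 ETO samples above both vehicle samples. Its adjusted p was 0.0476 with DESeq2's size factors, 2.25e-11 with DESeq2, 0.0128 with the replicate block and 0.0221 without scaling factors, a setting chosen after seeing the data, within a range up to 1.

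Each combination was compared with SR-3420 alone, to ask what the inhibitor changed in stimulated cells. In TC+SR-3420 against SR-3420, 2 of 10 genes passed against 4.58% of all genes, and both were lower (1.02% of all genes were higher and 3.55% lower). Mgll fell by 1.69 (SE 0.18, edgeR adjusted p = 0.000577) and Lipe by 1.35 (SE 0.29, adjusted p = 0.0186) on the log2 scale. The median log2 fold change was -0.57 for the 10 genes and 0.02 for all genes, and Pnpla2 stood at -1.18 (SE 0.33, adjusted p = 0.0633) with no overlap between the groups. Pnpla2 passed with DESeq2 (0.0162), without the filter on low counts (0.0485), with the replicate block (0.00276) and without scaling factors (0.0428), in a range of 0.00276 to 0.623. DESeq2 also called Pnpla3 (0.0479) and Angptl4 (0.0467), and the block Pnpla3 (0.0124) and G0s2 (0.0201), while DESeq2 called 1230 and the block 3008 of the 12786 genes. Lipe lost its call without SR-3420 replicate 1 (0.271), TC+SR-3420 replicate 2 (0.0544) or TC+SR-3420 replicate 3 (0.0860) and in a fit to the compared groups alone (0.0684), within a range of 0.000770 to 0.271. In each of those fits the count of the 10 genes was 1. The count over all genes, 585, was 54 without SR-3420 replicate 1, and 336, 275 and 213 without TC+SR-3420 replicates 1, 2 and 3. In ETO+SR-3420 against SR-3420, 0 of 10 genes passed the edgeR test against 0.00782% of all genes (1 gene), with 5 of 10 at an unadjusted p under 0.05, where 1279 of the 12786 genes stood, and 1 (Mgll, lower) by DESeq2, which called 93 of all genes. With the replicate block 4 of 10 passed (Pnpla2, Pnpla3, Lipe and Mgll, each lower), and 1838 of the 12786 genes. That 1 gene of all genes became 0 without SR-3420 replicate 1, SR-3420 replicate 3, ETO+SR-3420 replicate 1 or ETO+SR-3420 replicate 2, and 12 without ETO+SR-3420 replicate 3. The median log2 fold change of the 10 genes was -0.48 there, beside 0.00 for all genes.

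The responses to SR-3420 in the inhibitor arms were compared with each other by testing the difference between log2 fold changes. Between TC and no inhibitor, 1 of 10 genes passed against 2.51% of all genes: the Angptl4 response was smaller in TC by a log2 difference of -1.23 (SE 0.17, edgeR adjusted p = 0.00362), whichever sample was left out. The differences for Pnpla3 (-1.02, SE 0.30, adjusted p = 0.0969), Lipe (-1.29, SE 0.42, 0.130) and Pnpla2 (-1.19, SE 0.48, 0.226) did not pass. With the replicate block all 3 passed (adjusted p = 0.0212 for Pnpla3, 0.0267 for Lipe and 0.0364 for Pnpla2), and Pnpla3 passed with DESeq2 (0.0454), while the block called 1669 and DESeq2 832 of all genes in place of 321. Over the alternatives the adjusted p ran up to 0.419, 0.510 and 0.742, so whether these responses differ depended on the fit. The count over all genes, 321, was 138 and 58 without vehicle replicates 2 and 3, 58 and 180 without SR-3420 replicates 1 and 3, 173, 139 and 144 without TC replicates 1, 2 and 3, and 180, 164 and 160 without TC+SR-3420 replicates 1, 2 and 3. Between ETO and no inhibitor, 0 of 10 genes and 0% of all genes passed in edgeR, with 2 of 10 genes (Mgll and Angptl4) and 307 of all genes at an unadjusted p under 0.05. DESeq2 gave 0 of 10 genes and 9 of all genes. Between TC and ETO, 1 of 10 genes passed against 2.29% of all genes: the Angptl4 response was smaller in TC by a log2 difference of -0.70 (SE 0.15, adjusted p = 0.0322). With the replicate block Pnpla3 passed too (0.0273), and 1055 of all genes. That call was lost in 10 of the 12 fits that left out 1 sample: the adjusted p was 0.0868, 0.0604 and 0.0919 without TC replicates 1, 2 and 3, 0.0849, 0.0837 and 0.0741 without TC+SR-3420 replicates 1, 2 and 3, 0.0625, 0.0611 and 0.0744 without ETO replicates 1, 2 and 3, and 0.0806 without ETO+SR-3420 replicate 1. It was also lost without the filter on low counts (0.0914), and the adjusted p ran from 2.15e-05 to 0.0919. The count over all genes, 293, was 146, 147, 160, 191, 156 and 188 without TC replicate 2, TC replicate 3, TC+SR-3420 replicate 1, TC+SR-3420 replicate 3, ETO replicate 2 and ETO+SR-3420 replicate 1.

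How the genes varied among samples of the same treatment was described with Pearson's r over the 16 samples, after the group mean of log2 CPM was taken off each gene. By this measure Pnpla2 went with its inhibitor G0s2 (r = 0.99), with Pnpla3 (r = 0.96), with Lipe (r = 0.96) and less closely with Mgll (r = 0.73). Abhd5 went with Lipa (r = 0.93) and Lpl (r = 0.85) and opposite to Pnpla2 (r = -0.68). These samples share library depth and the sample they come from for both genes of a pair, and the values carry no p. Over the 16 samples as they stand, the genes most like Abhd5 were Immt, Mut and Hibadh (r = 0.98, 0.98 and 0.97), all 3 of which encode mitochondrial proteins. Those most like G0s2 were Heatr2, Arhgap39 and Slit3 (r = 0.93, 0.92 and 0.92), and those most like Angptl4 were Dlx3, Spry4 and Ciart (r = 0.97 each). Of these 9 genes, 4 were also among the closest by Spearman's rho: Immt, Heatr2, Arhgap39 and Ciart.

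Lipid droplet proteins, among them those that hold or inhibit ATGL and ABHD5 and some of droplet formation, were followed as a list of 13 genes, 12 of them tested. HILPDA, an inhibitor of ATGL, and perilipin 2, a droplet coat protein, rose with SR-3420 in each background. Hilpda was 13.6 and 10.9 CPM in vehicle and 90.1 and 72.2 CPM in SR-3420, and it rose by 2.73 (SE 0.20, edgeR adjusted p = 7.58e-06) without inhibitor, 2.00 in TC (SE 0.16, adjusted p = 3.07e-06) and 3.27 in ETO (SE 0.17, adjusted p = 1.58e-07). Plin2 rose by 2.10 (SE 0.26, adjusted p = 0.000421), 1.23 (SE 0.21, adjusted p = 0.000494) and 1.43 (SE 0.21, adjusted p = 0.000337), the value without inhibitor losing its call in a fit to the compared groups alone. Of the 12 tested genes, 2 were higher with SR-3420 alone, 2 higher and 6 lower in TC, and 2 higher and 5 lower in ETO (16.7%, 66.7% and 58.3%, beside 7.54%, 36.9% and 25.3% of all genes), with medians of -0.03, -0.92 and -0.49. Among those lower in TC were the droplet biogenesis factor Fitm2 (-1.63, SE 0.18, adjusted p = 2.70e-05) and the droplet fusion protein Cidec (-1.59, SE 0.29, adjusted p = 0.000842), and in ETO seipin (Bscl2, -1.07, SE 0.19, adjusted p = 0.00148). TC alone, with which 11.7% of all genes passed, raised 2 of the 12 (16.7%), Hilpda (1.12, SE 0.18, adjusted p = 0.00125) and Plin2 (0.80, SE 0.23, adjusted p = 0.0394). The count was 1 without vehicle replicate 3, TC replicate 1, TC replicate 2 or TC replicate 3, in each of which Plin2 lost its call, as it did in a fit to the compared groups alone.

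Of 20 other lipid hydrolases, 17 were tested. With SR-3420 in TC, 1 was higher and 4 were lower (29.4%, beside 36.9% of all genes, median -0.34), and in ETO likewise 1 and 4 (29.4%, beside 25.3%, median -0.55). The carboxylesterases Ces1d and Ces1f, lipases of the endoplasmic reticulum, were lower in TC (-1.88, SE 0.18, edgeR adjusted p = 9.74e-06, and -1.48, SE 0.18, adjusted p = 5.91e-05) and in ETO (-1.42, SE 0.18, adjusted p = 0.000117, and -1.49, SE 0.18, adjusted p = 9.97e-05). Nceh1, a cholesterol ester hydrolase, was higher in TC (0.71, SE 0.18, adjusted p = 0.00813). With SR-3420 alone the same 3 genes passed: Nceh1 higher, and Ces1d and Ces1f lower (17.6%, beside 7.54% of all genes, median -0.27). Without vehicle replicate 2, vehicle replicate 3 or SR-3420 replicate 1 that count was 0 in edgeR, Nceh1 also lost its call without SR-3420 replicate 3, and without ETO+SR-3420 replicate 3 the ETO count was 9. DESeq2 gave 5 with SR-3420 alone, where it called 1585 of all genes in place of 964. TC alone lowered 1 gene (5.88%, beside 11.7% of all genes), Ddhd1 (-0.78, SE 0.22, adjusted p = 0.0347), which lost its call whichever sample of vehicle or TC was left out.

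Of 34 genes of adrenergic, protein kinase A and antilipolytic signalling, 33 were tested. With SR-3420, 1 was higher without inhibitor, 8 were higher and 8 lower in TC, and 6 higher and 7 lower in ETO (3.03%, 48.5% and 39.4%, beside 7.54%, 36.9% and 25.3% of all genes, medians 0.21, 0.02 and 0.13). The 1 gene without inhibitor was Prkar1b, a regulatory subunit of protein kinase A (1.00, SE 0.21, edgeR adjusted p = 0.0109), and the count was 0 without vehicle replicate 2, vehicle replicate 3 or SR-3420 replicate 1. In TC, Prkg1, the cGMP-dependent kinase (1.34, SE 0.31, adjusted p = 0.00400), and Prkar1b (0.94, SE 0.17, adjusted p = 0.000779) were higher. The antilipolytic lactate receptor Hcar1 (-1.52, SE 0.21, adjusted p = 0.000103) and the natriuretic peptide receptor Npr1 (-1.16, SE 0.30, adjusted p = 0.00768) were lower there. Hcar1 was lower in ETO too (-1.37, SE 0.20, adjusted p = 0.000339), as was the adrenergic receptor Adrb3 (-1.23, SE 0.32, adjusted p = 0.0128), which lost its call without ETO replicate 1 or ETO+SR-3420 replicate 2 and in a fit to the compared groups alone. The TC count of 16 was 10 without TC+SR-3420 replicate 3, and the ETO count of 13 was 8 without ETO replicate 1 or ETO+SR-3420 replicate 2. TC alone lowered 6 genes (18.2%, beside 11.7% of all genes), led by the adenylyl cyclase Adcy9 (-1.91, SE 0.19, adjusted p = 2.43e-05) and the insulin receptor Insr (-1.83, SE 0.16, adjusted p = 1.09e-05). That count was 3 without vehicle replicate 2 or any 1 TC sample and 2 without vehicle replicate 3.

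Of 19 genes of LPL maturation, anchoring, inhibition and uptake, 16 were tested. Vldlr, a receptor for triacylglycerol-rich lipoproteins, rose with SR-3420 in each background: 2.82-fold without inhibitor (SE 0.13 on the log2 scale, edgeR adjusted p = 2.10e-05), 2.79-fold in TC (SE 0.10, adjusted p = 9.70e-07) and by 1.26 on the log2 scale in ETO (SE 0.10, adjusted p = 4.00e-06). It was the only 1 of the 16 to pass without inhibitor, and its call was lost in a fit to the compared groups alone. In TC 1 gene was higher and 5 lower, and in ETO 1 higher and 4 lower (medians -0.01, -0.46 and -0.30). These are 6.25%, 37.5% and 31.25% of the 16, beside 7.54%, 36.9% and 25.3% of all genes. The apolipoproteins Apoe (-2.04, SE 0.36, adjusted p = 0.000696) and Apoc3 (-1.74, SE 0.24, adjusted p = 0.000104) were lower in TC, and Apoc3 was lower in ETO (-1.35, SE 0.23, adjusted p = 0.00108). Without SR-3420 replicate 3 the count without inhibitor was 2, and without ETO+SR-3420 replicate 2 the ETO count was 3. TC alone lowered 1 gene (6.25%, beside 11.7% of all genes), the proprotein convertase Pcsk6 (-1.13, SE 0.24, adjusted p = 0.00795), and 0 passed in edgeR without vehicle replicate 2.

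The 16 lysosomal genes listed around Lipa were all tested. With SR-3420, 1 was higher and 1 lower without inhibitor, 4 were higher and 4 lower in TC, and 2 higher and 3 lower in ETO (12.5%, 50% and 31.25%, beside 7.54%, 36.9% and 25.3% of all genes, medians 0.03, 0.13 and 0.07). In TC the transcription factor Mitf (1.14, SE 0.25, edgeR adjusted p = 0.00297) and the autophagy receptor Sqstm1 (1.11, SE 0.16, adjusted p = 0.000172) were higher. The cathepsins Ctsd (-1.03, SE 0.18, adjusted p = 0.000633) and Ctsb (-0.77, SE 0.13, adjusted p = 0.000517) were lower there. The count without inhibitor was 1 without vehicle replicate 2 and 0 without vehicle replicate 3, SR-3420 replicate 1 or SR-3420 replicate 3, and the ETO count was 2 without ETO replicate 2 or ETO+SR-3420 replicate 2. DESeq2 gave 5 and 9, and 1585 and 3868 of all genes. TC alone raised 3 and lowered 1 (25%, beside 11.7% of all genes), the latter Mitf (-1.44, SE 0.27, adjusted p = 0.00302), and the count of 4 was 1 without vehicle replicate 3 and 2 without vehicle replicate 2 or any 1 TC sample.

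Of 16 genes that release or re-esterify the products of lipolysis, 15 were tested. Fabp4, the fatty acid carrier of fat cells, also stands in the brown adipocyte marker list. With SR-3420, 1 was lower without inhibitor, 9 were lower in TC and 7 in ETO (6.67%, 60% and 46.7%, beside 7.54%, 36.9% and 25.3% of all genes, medians -0.06, -0.96 and -0.68), and none of the 15 was higher in edgeR in these comparisons. In TC, Aqp7, the glycerol channel of fat cells (-1.63, SE 0.22, edgeR adjusted p = 9.95e-05), and Gpd1, which makes glycerol 3-phosphate (-1.60, SE 0.18, adjusted p = 3.04e-05), were lower, and in ETO so was the acyltransferase Gpam (-1.37, SE 0.17, adjusted p = 0.000113). The 1 gene without inhibitor was Gpam (-0.85, SE 0.21, adjusted p = 0.0235), which lost its call whichever of the 4 samples was left out. TC alone lowered 3 genes (20.0%, beside 11.7% of all genes), among them Gpam (-1.07, SE 0.18, adjusted p = 0.00175), and the count was 1 without vehicle replicate 2, TC replicate 1 or TC replicate 3.

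The 12 transcription regulators known for lipase genes were all tested. Egr1, an early growth response factor that represses Pnpla2 in fat cells, rose with SR-3420 in each background: by 2.51 without inhibitor (SE 0.18, edgeR adjusted p = 6.01e-06), 2.74 in TC (SE 0.15, adjusted p = 2.06e-07) and 2.88 in ETO (SE 0.15, adjusted p = 1.58e-07). Irf4, which promotes lipolysis genes, was lower without inhibitor (-1.02, SE 0.14, adjusted p = 0.000730) and in ETO (-1.04, SE 0.11, adjusted p = 4.05e-05), the former losing its call in a fit to the compared groups alone. In TC its value was -0.20 (SE 0.11, adjusted p = 0.188), and the TC controls already lay at 36.9 to 40.1 CPM, with vehicle at 83.4 and 87.7 CPM and SR-3420 at 42.6 and 41.6 CPM. In TC the liver X receptor Nr1h3 (-1.27, SE 0.30, adjusted p = 0.00500) and Ppara (-1.03, SE 0.23, adjusted p = 0.00324) were lower. In all, 1 regulator was higher and 2 lower without inhibitor, 1 higher and 3 lower in TC, and 1 higher and 4 lower in ETO (25%, 33.3% and 41.7%, beside 7.54%, 36.9% and 25.3% of all genes, medians -0.27, -0.12 and -0.36). TC alone lowered 6 of the 12 (50%, beside 11.7% of all genes), among them Rxra (-1.55, SE 0.24, adjusted p = 0.000773) and Pparg (-1.48, SE 0.19, adjusted p = 0.000182), the receptor pair that drives fat cell genes. The count was 3 without vehicle replicate 2, vehicle replicate 3, TC replicate 1 or TC replicate 2. The regulators Pparg, Cebpa and Ppargc1a and the droplet genes Plin1 and Cidea also stand in the brown adipocyte marker list.

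**Figure D4:**
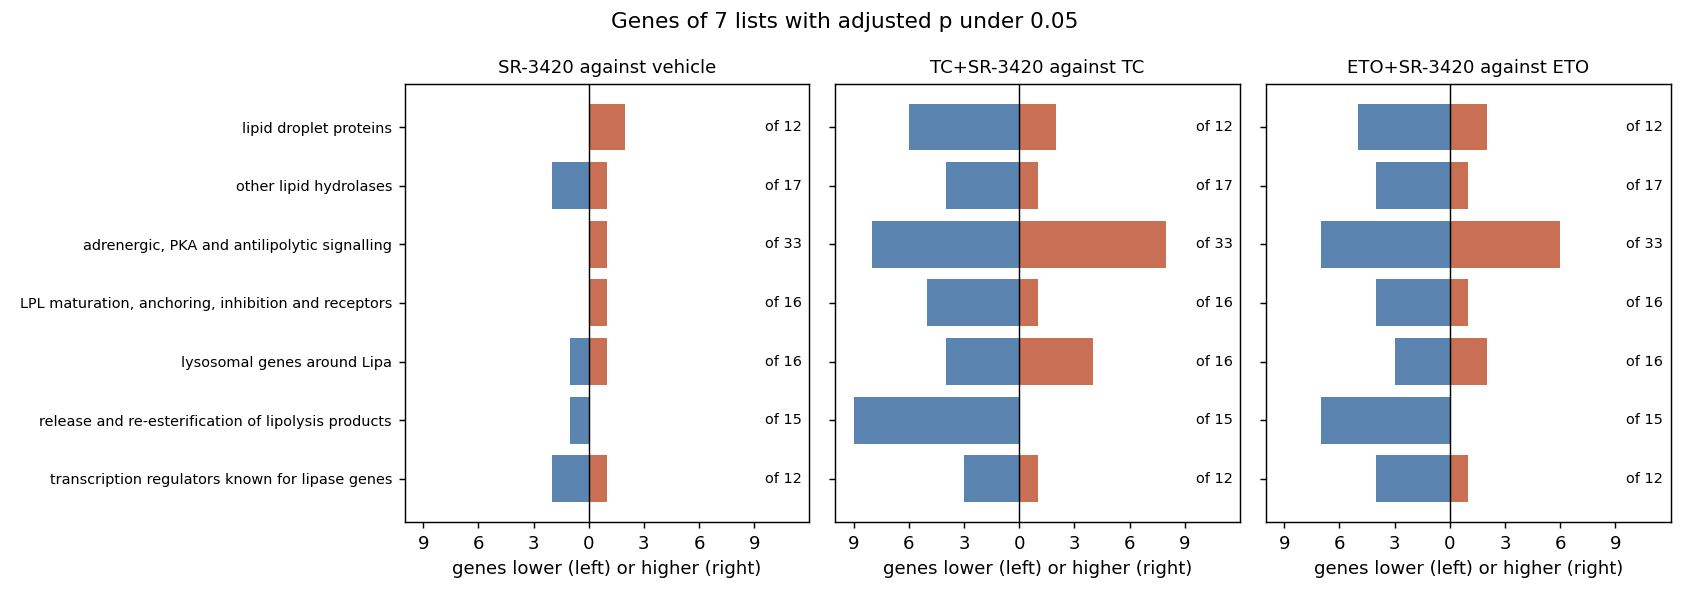
Number of tested genes that were higher or lower (edgeR adjusted p under 0.05) with SR-3420 against its own control, in each of the 7 gene lists, without inhibitor, with TC and with ETO. The release and re-esterification list has 1, 9 and 7 genes lower, and the droplet list 2 genes higher in each background.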

How the data were processed

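RNA of 16 samples in 6 groups was counted per gene. The 10 genes and the 7 gene lists were chosen by symbol with earlier results of these data known. The authors deposited raw counts per gene, and the submitters' processing notes name STAR 2.4.2a, HOMER and the mm9 build. The study's methods name iRNA-seq 1.1 and keeping 1 read per position and length, and strand was not stated. Samples held 9452861 to 25670624 counts. Genes were filtered with filterByExpr (minimum count 10) and scaled by TMM, and CPM values are TMM-scaled. All 16 samples were fitted with 6 group means in edgeR 4.0.16, tested by the quasi-likelihood test and adjusted by Benjamini-Hochberg over 12786 genes, with a threshold of 0.05. From each list, up to 2 genes per direction and comparison were named, those with the largest log2 fold change among genes past the threshold with a mean of at least 50 normalized counts, and for Abhd5, G0s2 and Angptl4 the 3 other genes most correlated with each. Standard errors (SE) were taken from the fold change and the test statistic. The alternatives were DESeq2's size factors, the Wald test of DESeq2 1.42.0, no filter on low counts, at least 10 counts in every sample, replicate number as a block in edgeR, a fit to the compared groups only, and each sample left out in turn. An alternative without scaling factors was chosen after seeing the data, as were those run on the lists and ratios. The scripts were tested on simulated data; a first criterion for that test was not met and was replaced after its result was seen, so it was not a preset test. R 4.3.3, Python 3.11.15 and matplotlib 3.10.9 were used.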

Additional observations from a re-analysis of the deposited data

Results flagged for a closer look

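The SR-3420 response of Angptl4 differed between arms, and the difference between the responses was itself tested with edgeR's quasi-likelihood test and Benjamini-Hochberg adjustment. TC minus no inhibitor was -1.23 (SE 0.17, adjusted p = 0.00362) on the log2 scale, from responses of 0.87 and 2.10. TC minus ETO was -0.70 (SE 0.15, adjusted p = 0.0322), from responses of 0.87 and 1.57. The 8 samples with SR-3420 lay at 901 to 1173 CPM, while the controls lay at 192 to 236 CPM in vehicle, 345 to 398 CPM in ETO and 569 to 627 CPM in TC. The adjusted p of the first ran from 3.51e-13 to 0.0357 over its alternatives. That of the second ran from 2.15e-05 to 0.0919 and passed the threshold in 2 of the 12 fits that left out 1 sample, those without ETO+SR-3420 replicate 2 or 3.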

How the results depend on the processing

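Of 100 pairs of gene and comparison, 20 passed in edgeR, and 13 of these passed under every alternative; of the 80 that did not pass, 62 passed under none. Of 72 named pairs from the lists, 44 passed under every alternative. The number of these pairs that reversed was 0 among the 10 genes and 0 among the lists, in edgeR and in DESeq2.

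With DESeq2's Wald test the counts of the 10 genes went from 0 to 1 for ETO against vehicle, from 2 to 5 for TC+SR-3420 against SR-3420, from 0 to 1 for ETO+SR-3420 against SR-3420 and from 1 to 2 for the TC minus none difference in response. ETO against vehicle also gave 1 with DESeq2's size factors and without scaling factors, the latter chosen after seeing the data. Without the filter on low counts the TC minus ETO count went from 1 to 0. With only the compared groups, SR-3420 against vehicle gave 1 in place of 2, ETO+SR-3420 against ETO 3 in place of 5 and TC+SR-3420 against SR-3420 1 in place of 2. The cause was not tested. Ranked in the SR-3420 samples in place of vehicle, 3 of 10 genes kept their rank per kb.

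With the replicate block the counts were 4 in place of 2 for SR-3420 against vehicle, 1 in place of 0 for ETO against vehicle, 5 in place of 2 for TC+SR-3420 against SR-3420, 4 in place of 0 for ETO+SR-3420 against SR-3420, 4 in place of 1 for TC minus none and 2 in place of 1 for TC minus ETO. Over all genes the block gave 2438, 7185, 5776, 3072, 6, 3008, 1838, 1669, 3 and 1055 in place of 964, 4722, 3234, 1497, 3, 585, 1, 321, 0 and 293, in the order SR-3420 alone, in TC, in ETO, TC and ETO against vehicle, TC+SR-3420 and ETO+SR-3420 against SR-3420, and the differences TC minus none, ETO minus none and TC minus ETO. As a check on pairing, the deviations of samples from their group mean were correlated between groups: 35 pairs with the same number had a mean r of 0.46 (lowest -0.32, 27 over 0.1), 71 pairs with different numbers a mean of -0.23, and 11 of 16 samples were closest to a sample of their own number. The labels state no pairing, and the number entered the tests only as the replicate block. The study's methods speak of independent experiments but do not link them to these numbers. Vehicle had replicates 2 and 3 and SR-3420 alone 1 and 3, so that comparison is not balanced over the numbers. There the block gave a log2 fold change of 1.19 for G0s2 (SE 0.37) in place of 1.43 (SE 0.56). For Lpl it gave -0.69 (SE 0.20) in place of -0.67 (SE 0.31).

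Leave-one-out counts of the 10 genes ran, in the same order, over 2 to 2, 5 to 7, 3 to 5, 2 to 2, 0 to 0, 1 to 2, 0 to 0, 1 to 1, 0 to 0 and 0 to 1. Over all genes they ran over 316 to 515, 3535 to 4053, 1987 to 3191, 707 to 1094, 0 to 3, 54 to 397, 0 to 12, 58 to 180, 0 to 0 and 146 to 260. Where 1 sample of a group of 2 was left out, the lone sample was assumed to vary like the other groups.

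Over all genes, DESeq2's Wald test gave 1585 in place of 964 for SR-3420 against vehicle, 17 in place of 3 for ETO against vehicle, 1230 in place of 585 for TC+SR-3420 against SR-3420, 93 in place of 1 for ETO+SR-3420 against SR-3420, 832 in place of 321 for TC minus none, 9 in place of 0 for ETO minus none and 682 in place of 293 for TC minus ETO. With only the compared groups the counts were 47 in place of 964 for SR-3420 against vehicle, 1142 in place of 3234 for ETO+SR-3420 against ETO, 0 in place of 3 for ETO against vehicle, 82 in place of 585 for TC+SR-3420 against SR-3420 and 0 in place of 1 for ETO+SR-3420 against SR-3420, while TC+SR-3420 against TC went from 4722 to 5635 and TC against vehicle from 1497 to 1476. Without the filter TC minus none gave 163, and ETO+SR-3420 against SR-3420 gave 0 both without the filter and without scaling factors. The cause was not tested.

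The marker counts were put under the same alternatives after seeing the data. For SR-3420 alone, in TC and in ETO, the brown adipocyte markers called were 2, 8 and 5 in edgeR and in DESeq2, 0, 8 and 2 with only the compared groups, 5, 8 and 6 with the replicate block, and 0 to 1, 5 to 6 and 3 to 5 with a sample left out. The preadipocyte and fibroblast markers called were 0, 3 and 4 in edgeR, 2, 5 and 7 in DESeq2, 0, 4 and 0 with only the compared groups, 3, 6 and 7 with the replicate block, and 0 to 0, 1 to 4 and 1 to 6 with a sample left out. The proliferation markers called were 0, 1 and 0 in edgeR and in DESeq2 (0, 2 and 1 at unadjusted p < 0.05 in each), 0, 3 and 0 with only the compared groups, 0, 3 and 3 with the replicate block, and 0 to 0, 0 to 0 and 0 to 1 with a sample left out.

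Vehicle and SR-3420 alone had 2 samples each, and the model estimated the spread over all 6 groups. Samples of a group differed more than counting noise, with a chi-square per degree of freedom of 3.76 to 125 over 14 pairs.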
